A study of Mus musculus with 3 samples.

Results

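The genes described here are 7 Toll-like receptors (Tlr1, Tlr2, Tlr3, Tlr4, Tlr7, Tlr9 and Tlr13), the co-receptor Cd14 and the adaptor Myd88, given as a list by name; all 9 were found among the 29298 genes that the 3 libraries measured. They were followed across the leukocytes of infarcted mouse hearts. Molecules of polyadenylated RNA were counted per cell on the BD Rhapsody platform, in which single cells settle in microwells with barcoded beads. The hearts came from 2 groups of mice, F7fl/fl CX3CR1Cre and F7fl/fl WT, after permanent ligation of a coronary artery and at several times. Both groups carry floxed alleles of F7, the gene of coagulation factor 7, and the Cre of the first line is named for CX3CR1, the fractalkine receptor, whose gene is active in monocytes, macrophages and some other leukocytes. Hearts were digested with enzymes, dead cells were removed, and CD45-positive cells were taken on magnetic beads. Cells of each biological replicate carried a sample tag; library 1 pooled 7 tags, library 2 pooled 5 and library 3 pooled 6. Genotype and time are not known here for a single tag, so no comparison between genotypes, times or hearts was made, and every test below compares classes of cells within the same tags.

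Toll-like receptors bind parts of microbes and material released by dying cells. Tlr1, Tlr2 and Tlr4 lie at the cell surface, and Cd14 hands lipopolysaccharide and lipoproteins to Tlr4 and Tlr2. Tlr3, Tlr7, Tlr9 and Tlr13 lie in endosomes and bind nucleic acids, and all of the receptors except Tlr3 signal through Myd88, which recruits Irak kinases and leads to NF-kappaB. In the infarcted heart these receptors are known as sensors of material from dead cardiomyocytes.

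The windows from 250 bases before to 50 bases after the transcription start of 4 members are printed because results below turn on these genes: Tlr3 between cDC1 and other dendritic cells, Tlr9 and Tlr1 between macrophages of high and low MHC class II, and Myd88 between dendritic cells and macrophages. Sequences are from RefSeq on build GRCm38.p6, in the direction of transcription, at chr8:45410331-45410630 (minus strand) for Tlr3, chr9:106222348-106222647 (plus strand) for Tlr9, chr5:64933509-64933808 (minus strand) for Tlr1 and chr9:119339969-119340268 (minus strand) for Myd88.
Tlr3: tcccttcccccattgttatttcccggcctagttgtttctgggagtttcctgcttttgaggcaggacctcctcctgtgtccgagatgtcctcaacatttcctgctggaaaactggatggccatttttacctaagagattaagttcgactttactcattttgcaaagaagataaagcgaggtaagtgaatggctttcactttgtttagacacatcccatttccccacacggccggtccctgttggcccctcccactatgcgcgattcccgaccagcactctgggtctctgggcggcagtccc
Tlr9: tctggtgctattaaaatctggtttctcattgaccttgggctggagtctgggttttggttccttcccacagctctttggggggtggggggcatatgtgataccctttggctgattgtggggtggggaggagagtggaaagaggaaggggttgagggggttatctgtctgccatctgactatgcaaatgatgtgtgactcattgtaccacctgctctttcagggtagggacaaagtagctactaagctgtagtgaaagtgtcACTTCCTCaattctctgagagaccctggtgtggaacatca
Tlr1: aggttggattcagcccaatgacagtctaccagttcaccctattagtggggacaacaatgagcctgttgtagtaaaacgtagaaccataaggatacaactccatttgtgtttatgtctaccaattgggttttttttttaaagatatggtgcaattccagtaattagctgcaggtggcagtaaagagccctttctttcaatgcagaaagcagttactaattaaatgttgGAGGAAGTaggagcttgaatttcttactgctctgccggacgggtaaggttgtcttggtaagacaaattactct
Myd88: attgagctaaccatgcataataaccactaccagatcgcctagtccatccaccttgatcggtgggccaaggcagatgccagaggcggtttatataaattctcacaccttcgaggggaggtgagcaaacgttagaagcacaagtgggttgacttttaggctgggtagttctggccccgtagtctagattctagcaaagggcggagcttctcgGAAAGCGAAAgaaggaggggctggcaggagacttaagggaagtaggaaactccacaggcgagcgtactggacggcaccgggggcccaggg
Capitals mark matches on either strand to the PU.1 motif GAGGAAGT, written ACTTCCTC where it lies on the other strand, or to GAAA and GAAA set 2 bases apart, the repeated core of the interferon-stimulated response element. The PU.1 letters begin at base 261 of the Tlr9 window and at base 228 of the Tlr1 window, and the interferon letters begin at base 211 of the Myd88 window. Neither motif was found in the Tlr3 window, and no match of one overlapped a match of the other in these windows. Of 32851 promoter windows of the same length, 3.2% held the PU.1 letters and 3.44% the interferon letters. A match describes the letters only, and no match says only that these letters are not in the window. In the table used, 6 members had 7 windows, and the second window of Tlr1 and those of Tlr2 and Tlr13 held neither motif.

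Cells with at least 200 genes were assigned to classes by the first rule they met. The T class had at least 2 molecules of Cd3e, Cd3d and Cd3g together, and the B class at least 2 of Cd79a. Neutrophils had at least 1% of their molecules from S100a8 and S100a9 and at least 1 molecule of Csf3r. Macrophages had at least 0.1% from the C1q genes, dendritic cells (DC) at least 1 molecule of Flt3 and monocytes at least 2 of Ly6c2. Of 25762 cells, 25640 were kept: 15023 macrophages, 2427 monocytes, 1371 DC, 1225 cells of the T class, 779 of the B class, 488 neutrophils and 4327 cells (16.9%) of no class. Conventional type 1 dendritic cells (cDC1; Xcr1 and Clec9a molecules 2 or more, taken from DC, monocytes and cells of no class) numbered 268 and were kept apart from 1134 other DC. Macrophages were also split within each tag by the share of their molecules from the MHC class II genes H2-Aa, H2-Ab1, H2-Eb1 and Cd74, and the cells ranked highest and lowest, 5001 each of 15023, were compared. That split is a range and not a cell type: 1351 macrophages lay within 10% of a threshold. High and low are relative to the tag. The share at which the high group began ran from 0.0242% to 1.63% over tags. The share at which the low group ended ran from 0.00824% to 0.0629%, so high in some tags of library 1 began below that highest value.

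Tags held 10152522 to 62344127 molecules, and the median per cell ranged over tags from 11399.5 to 20282. The median was 20575 molecules in macrophages, 13811 in DC, 12701 in monocytes and 3997 in neutrophils. Library 1 differed from the others in its bead version and pipeline, and reads in introns were counted in it; it also held 2227 of the 2427 monocytes. Library, bead, pipeline and hearts cannot be told apart. Time and genotype are not known per tag and may differ between libraries as well. Values within libraries are therefore given beside many of the results. Libraries 1 and 2 shared 4 cell barcodes, libraries 1 and 3 shared 3, and libraries 2 and 3 shared 0. The classes showed their defining markers, but these include the genes that chose the cells, so that was in part fixed by the rules. The T and B classes held macrophage RNA as well. The 7 macrophage markers include the C1q genes, so low sums in cells that failed the macrophage rule were in part fixed too. In the T class 43.8% of cells and in the B class 50.3% also met the macrophage rule, and 7 macrophage markers summed to 9367 CPM (counts scaled to the total of the class) in the T class and 10705 CPM in the B class, against 15668 CPM in macrophages. Macrophage markers summed to 1424 to 4639 CPM over tags in monocytes, 679 to 2844 CPM in neutrophils and 683 to 2012 CPM in DC other than cDC1, against 10767 to 27151 CPM in macrophages; their part in the results was not tested. In T cells that met no other rule (276 cells) the same markers summed to 1337 CPM, and in such B cells (267 cells) to 2681 CPM. Values of the T and B classes below are therefore given beside those of these single-rule cells.

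All levels are CPM, molecules of a gene over all molecules of the class in a tag, in units of 1e-06, over tags with at least 20 cells of the class (10 for cDC1). CPM values are compared between classes for 1 gene, not between genes. Differences are log2 differences with standard errors from edgeR's quasi-likelihood test on molecules summed per tag and class, with the tag as a block and Benjamini-Hochberg adjustment over all genes tested, and a call means an adjusted p under 0.05. Most genes differed between classes, so each count of members is read against the share of all genes called.

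Macrophages were compared with monocytes in 10 tags. Of the 9 members, 3 were higher in macrophages (Tlr3, Tlr4 and Tlr7), 4 were lower (Tlr2, Tlr9, Cd14 and Myd88) and 2 were not called (Tlr1 and Tlr13). Of all 11223 genes tested, 63.4% were called, 32% higher and 31.4% lower, so the 7 of 9 members called and the split between directions stand near the background. Macrophages were compared with neutrophils in 9 tags, where 4 members were higher (Tlr1, Tlr3, Tlr7 and Tlr9) and 5 lower (Tlr2, Tlr4, Tlr13, Cd14 and Myd88). The background was 59.7% of 10394 genes, 39.9% higher and 19.8% lower. Neutrophils held 1 molecule of Tlr3 and 0 of Tlr9, so both genes passed the filter on low counts only through macrophages. Their direction was thus fixed in advance, and they are not to be counted against that background. In this comparison the median log2 difference over all genes was 0.58, and 0.74 with DESeq2's size factors, and members are to be read relative to it. Neutrophils were compared with monocytes in 6 tags, where 4 of 7 tested members were higher (Tlr4, Tlr13, Cd14 and Myd88), 2 were lower (Tlr1 and Tlr7) and Tlr2 was not called, with 56.9% of 4922 genes called, 27.5% higher and 29.4% lower. Tlr3 and Tlr9 did not pass the filter on low counts there. DC other than cDC1 were compared with macrophages in 15 tags, where 1 member was higher (Myd88), 7 were lower and Tlr9 was not called, with 58.4% of 10854 genes called, 27.5% higher and 30.9% lower.

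**Figure D1:**
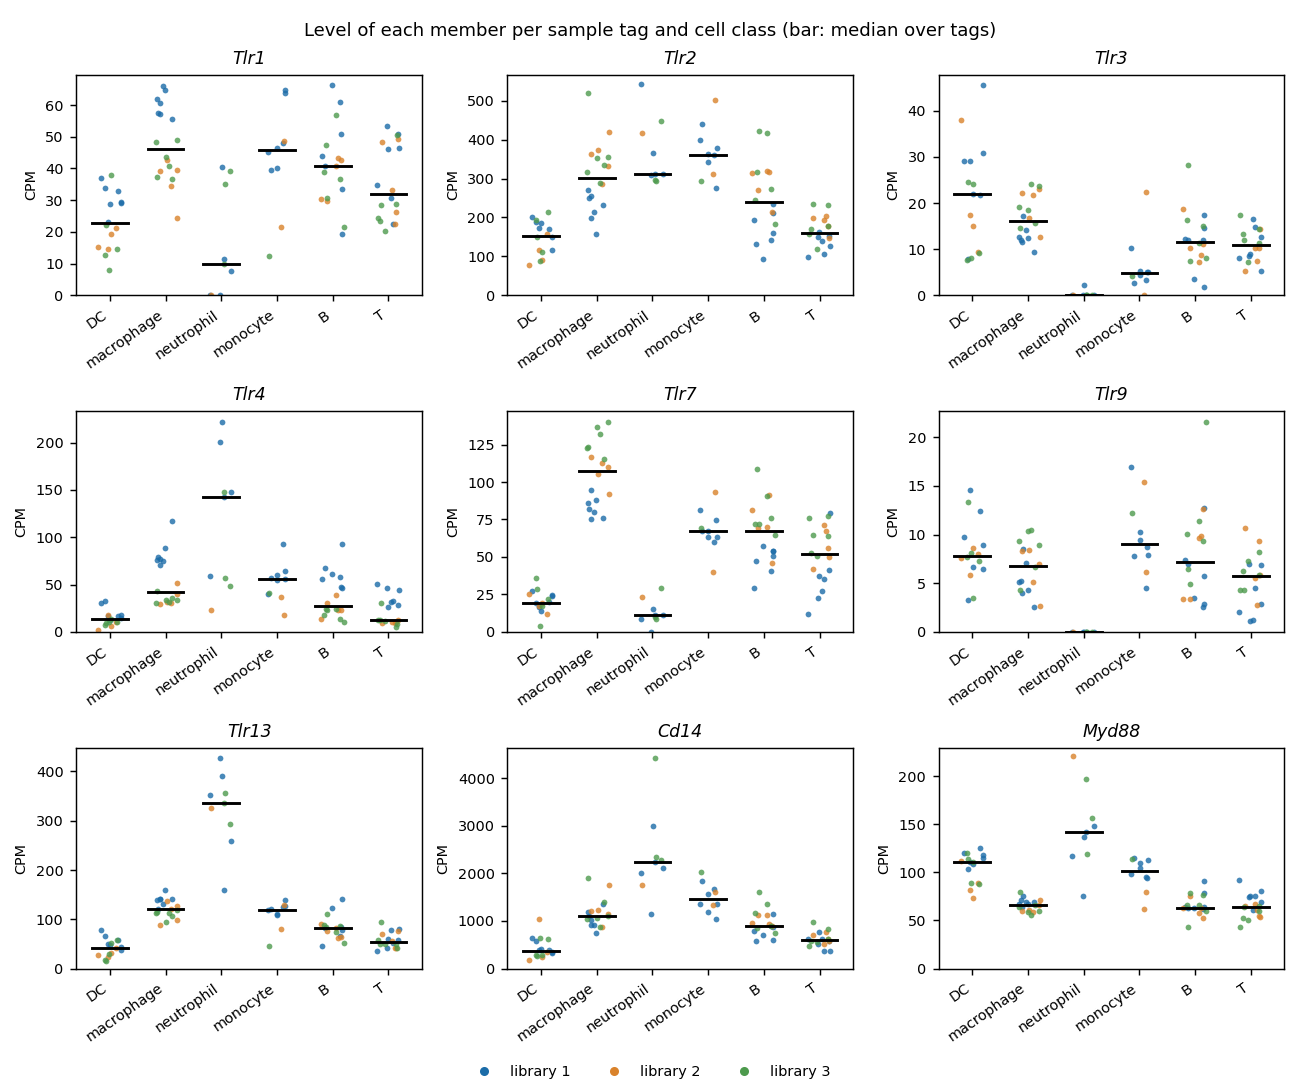
Levels of the 9 members in CPM (vertical axes, 1 panel a gene) in DC, macrophages, neutrophils, monocytes and the B and T classes; each point is 1 tag coloured by library and each bar the median over tags. Tlr13 stood at 159 CPM or more in every neutrophil tag, and Tlr9 was at 0 in all 9 neutrophil tags.

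**Figure D2:**
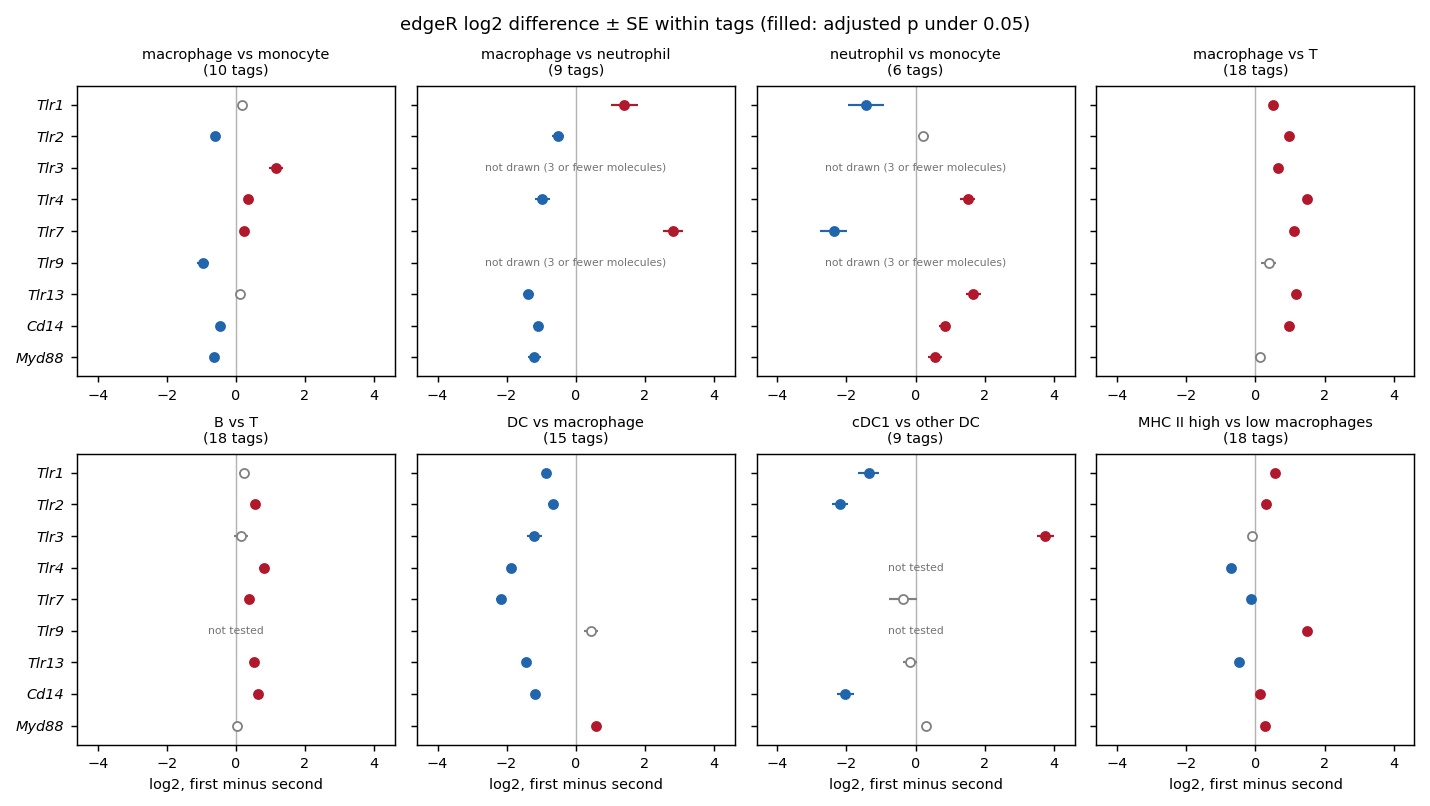
Log2 differences (horizontal axes, with standard errors) of the 9 members in 8 comparisons of classes within tags; filled points had an edgeR adjusted p under 0.05. Tlr3 and Tlr9 are not drawn against neutrophils, where 3 or fewer molecules were counted.

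Tlr2 recognises bacterial lipoproteins together with Tlr1 or Tlr6. Its level had a median of 361 CPM in monocytes (275 to 502 over 10 tags), 313 CPM in neutrophils (294 to 544 over 9 tags) and 302 CPM in macrophages (157 to 519 over 18 tags). It was 153 CPM in DC (78.4 to 215 over 16 tags). Myeloid classes other than DC overlapped widely. Neighbours in this order were compared by sign-flip permutation tests within tags, adjusted over 45 neighbouring pairs of all members. Monocytes against neutrophils (6 tags) and neutrophils against macrophages (9 tags) were not called (adjusted p 0.912 and 0.147), which with few tags does not show equal levels. Macrophages against monocytes were not tested in this way. In the 10 tags that held both classes, Tlr2 had a median of 252 CPM in macrophages (157 to 419) and 361 CPM in monocytes (275 to 502), and was lower in macrophages in 8 of 10 tags. The log2 difference was -0.61 (SE 0.12, edgeR adjusted p 5.31e-04). That call rested on library 1: the difference was -0.80 in its 7 tags, -0.03 in the 2 tags of library 2 (edgeR adjusted p 0.979) and 0.05 in the 3 tags outside library 1 (adjusted p 0.930). Against neutrophils, with medians of 269 CPM in macrophages (157 to 519) and 313 CPM in neutrophils (294 to 544), the difference was -0.51 (SE 0.17, edgeR adjusted p 0.0123). It was lower in macrophages in 7 of 9 tags, was -0.36 with DESeq2's size factors (adjusted p 0.0733), and was -0.74 in library 1 and 0.02 in library 3. In DC other than cDC1 Tlr2 held 187 CPM (99.6 to 237) against 286 CPM in macrophages (157 to 419) and was lower in 14 of 15 tags, a difference of -0.67 (SE 0.15, edgeR adjusted p 4.72e-04). Within libraries 1, 2 and 3 that difference was -0.17 (adjusted p 0.114), -1.40 and -1.07. It was -1.22 without library 1, and -0.28 (adjusted p 0.0521) with at least 50 cells.

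Tlr1, the partner of Tlr2 for triacylated lipoproteins, had a median of 46 CPM in macrophages (24.5 to 66.0), 45.9 CPM in monocytes (12.2 to 64.6), 22.7 CPM in DC (8.06 to 38.1) and 9.86 CPM in neutrophils (0 to 40.6, with 3 of 9 tags at 0). Neutrophils thus lay at the low end, with a range that overlapped the other classes. Macrophages exceeded neutrophils in 9 of 9 tags, with 55.7 CPM (34.4 to 66.0) against 9.86 CPM, a log2 difference of 1.41 (SE 0.38, edgeR adjusted p 0.00191). It was 1.91 in library 1 and 0.40 in library 3 (edgeR adjusted p 0.602), and 0.80 without library 1 (adjusted p 0.211). Neutrophils were below monocytes in 6 of 6 tags, with 8.72 CPM (0 to 40.6) against 47.2 CPM (12.2 to 64.6), a difference of -1.43 (SE 0.52, edgeR adjusted p 0.0276) that was -0.80 (adjusted p 0.201) with at least 50 cells. Between macrophages and monocytes the edgeR difference was 0.19 (SE 0.09, adjusted p 0.0824), while the sign-flip permutation test gave an adjusted p of 0.0317 with macrophages higher in 9 of 10 tags. The genes of Tlr1 and Tlr6 are close copies of each other, and the treatment of reads shared between them is not stated, so values of both are uncertain.

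Tlr4, the receptor of lipopolysaccharide, was higher in neutrophils than in the other myeloid classes. It had a median of 142 CPM in neutrophils (23.2 to 222), 55.4 CPM in monocytes (18.3 to 92.4), 41.8 CPM in macrophages (29.7 to 117) and 13.2 CPM in DC (2.53 to 33.0). In the 6 tags with both classes neutrophils held 148 CPM (58.6 to 222) and monocytes 56.3 CPM (40.8 to 92.4), and neutrophils were higher in 6 of 6. The log2 difference was 1.5 (SE 0.22, edgeR adjusted p 2.93e-05); the exact sign-flip test, whose smallest p with 6 tags is 0.03125, gave that value and an adjusted p of 0.0586. Macrophages fell below neutrophils by 0.97 on the log2 scale (SE 0.22, edgeR adjusted p 3.12e-04), with 74.8 CPM (30.7 to 117) against 142 CPM (23.2 to 222) and 7 of 9 tags lower. The difference was -0.81 in library 1 and -1.34 in library 3.

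Within tags Tlr4 was higher in macrophages than in monocytes, although the medians given above, which are over different tags, ran the other way. In the 10 shared tags macrophages held 75.4 CPM (31.3 to 117) and monocytes 55.4 CPM (18.3 to 92.4), macrophages were higher in 9 of 10, and the difference was 0.36 (SE 0.07, edgeR adjusted p 4.43e-04). The level depended on the library: the median of macrophage tags was 76.8 CPM in library 1, 31.3 CPM in library 2 and 33.6 CPM in library 3. DC other than cDC1 were lower than macrophages in 15 of 15 tags, at 14.6 CPM (3.21 to 38.8) against 51.9 CPM (30.7 to 117), a difference of -1.87 (SE 0.12, edgeR adjusted p 1.10e-11).

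Cd14, the co-receptor that presents lipopolysaccharide and lipoproteins, had a median of 2235 CPM in neutrophils (1140 to 4426), 1465 CPM in monocytes (1045 to 2036), 1102 CPM in macrophages (744 to 1894) and 370.1 CPM in DC (185 to 1044). Unlike Tlr4, it was lower in macrophages than in monocytes within tags. Ranges of neighbouring classes overlapped. Neutrophils were higher than monocytes in 6 of 6 tags, with 2179 CPM (1140 to 4426) against 1511 CPM (1045 to 2036), a difference of 0.84 (SE 0.16, edgeR adjusted p 3.35e-04). Macrophages were lower than neutrophils in 9 of 9 tags (log2 difference -1.10, SE 0.15, edgeR adjusted p 9.82e-08) and lower than monocytes in 9 of 10. Against monocytes the values were 1145 CPM (744 to 1747) in macrophages and 1465 CPM (1045 to 2036) in monocytes, a difference of -0.47 (SE 0.09, edgeR adjusted p 3.96e-04) that was -0.56 in library 1 and -0.18 without it (adjusted p 0.624). DC other than cDC1 were lower than macrophages in 15 of 15 tags, by 1.19 on the log2 scale (SE 0.11, edgeR adjusted p 3.34e-09; 453.5 CPM, 193 to 1220, against 1095 CPM, 744 to 1747). The other DC also held fibroblast markers, whose 4 genes summed to between 29.1 and 6143 CPM by tag; their part in the DC values was not tested.

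Among the endosomal receptors, Tlr7, which binds single-stranded RNA, was led by macrophages. Its median was 108 CPM in macrophages (75.6 to 140.3), 67.1 CPM in monocytes (40.1 to 93.6), 19.6 CPM in DC (4.03 to 35.7) and 11.4 CPM in neutrophils (0 to 29.3). The ranges of macrophages and neutrophils did not overlap, and neither did those of macrophages and DC. The log2 difference of macrophages from neutrophils was 2.82 (SE 0.29, edgeR adjusted p 3.85e-10, 9 of 9 tags higher), and it was 2.85 in library 1 and 2.99 in library 3. Neutrophils were below monocytes in 6 of 6 tags with no overlap, at 10.6 CPM (0 to 15.0) against 67.1 CPM (59.7 to 74.7), a difference of -2.37 (SE 0.38, edgeR adjusted p 6.96e-05). These neutrophil values rest on few molecules, 22 in the 9 tags and 15 in the 6 tags. Macrophages exceeded monocytes in 10 of 10 tags by a smaller amount, 87.3 CPM (75.6 to 115) against 67.1 CPM (40.1 to 93.6), a difference of 0.24 (SE 0.08, edgeR adjusted p 0.0127) that was 0.62 without library 1 (adjusted p 0.154). The other DC stood at 20.8 CPM (3.34 to 39.5) against 94.6 CPM in macrophages (75.6 to 140.3), a difference of -2.16 (SE 0.15, edgeR adjusted p 4.01e-11).

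Tlr13, the mouse receptor for bacterial ribosomal RNA, ran opposite to Tlr7 between neutrophils and macrophages or monocytes, but not between DC and macrophages. It had a median of 335 CPM in neutrophils (159 to 428), 121 CPM in macrophages (88.8 to 160.4), 120 CPM in monocytes (44.9 to 139.9) and 42.6 CPM in DC (15.6 to 78.5). Macrophages were lower than neutrophils in 9 of 9 tags, at 131 CPM (106 to 160.4) against 335 CPM (159 to 428), so that the highest macrophage tag lay just above the lowest neutrophil tag. The log2 difference was -1.38 (SE 0.16, edgeR adjusted p 6.83e-09), and it was -1.09 in library 1 and -1.75 in library 3. Neutrophils were higher than monocytes in 6 of 6 tags with no overlap, at 343 CPM (159 to 428) against 123 CPM (44.9 to 139.9), a difference of 1.67 (SE 0.23, edgeR adjusted p 1.41e-05). Macrophages and monocytes differed by 0.13 (SE 0.08, edgeR adjusted p 0.144), although macrophages were higher in 10 of 10 tags and the sign-flip permutation test gave an adjusted p of 0.00802. The other DC held 46.6 CPM (7.19 to 81.4) against 127 CPM in macrophages (95 to 160.4), with no overlap and a difference of -1.44 (SE 0.11, edgeR adjusted p 4.22e-10).

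Tlr9, the receptor of unmethylated CpG DNA, was detected at low levels in every class except neutrophils. Its median was 9.07 CPM in monocytes (4.48 to 16.9), 7.80 CPM in DC (3.24 to 14.5) and 6.81 CPM in macrophages (2.56 to 10.5), with overlapping ranges. Neutrophils held 0 molecules of Tlr9 in 9 tags with 1765201 molecules in all, where the macrophages of the same tags had 1085 molecules. With 3 counts over the group as the limit that a count of 0 allows, Tlr9 was at least 2.88-fold higher in macrophages and, over the 6 tags shared with monocytes, at least 3.39-fold higher in monocytes. The call against neutrophils was lost without library 1 and with at least 50 cells (edgeR adjusted p 0.0795 and 0.0774). Macrophages were lower than monocytes in 9 of 10 tags, at 5.18 CPM (2.56 to 8.56) against 9.07 CPM, a difference of -0.94 (SE 0.17, edgeR adjusted p 2.42e-04), and -0.95 without library 1 (adjusted p 0.487). The other DC differed from macrophages by 0.44 (SE 0.21, edgeR adjusted p 0.0790), with 0.67 (adjusted p 0.0402), 0.56 and -0.53 within libraries 1, 2 and 3.

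Tlr3, the receptor of double-stranded RNA and the member that signals through Ticam1 rather than Myd88, had a median of 21.9 CPM in DC (7.64 to 45.6), 16.2 CPM in macrophages (9.30 to 24.1) and 4.74 CPM in monocytes (0 to 22.4). Neutrophils were at 0 in 8 of 9 tags and held 1 molecule in those tags, against 2999 in the macrophages of the same tags, a ratio of 23.9 with a 95% counting interval of 4.29 to 944. The interval covers counting error only. Macrophages exceeded monocytes in 9 of 10 tags, at 12.6 CPM (9.30 to 17.2) against 4.74 CPM (0 to 22.4), a difference of 1.16 (SE 0.20, edgeR adjusted p 1.36e-04) that was 1.26 in library 1 and 0.66 without it (adjusted p 0.607). Without cDC1, the other DC held 6.31 CPM (0 to 18.3) against 15.7 CPM in macrophages (9.30 to 23.6) and were lower in 15 of 15 tags (difference -1.20, SE 0.21, edgeR adjusted p 5.18e-05). An antisense gene, Gm45542, shares 698 bases with Tlr3 but had 16 molecules in macrophages, against 5535 of Tlr3.

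Myd88, the adaptor shared by the receptors other than Tlr3 and by the interleukin-1 and interleukin-18 receptors, was lowest in macrophages among the myeloid classes. It had a median of 142 CPM in neutrophils (75.4 to 221), 111 CPM in DC (73.5 to 125), 102 CPM in monocytes (61.7 to 115) and 66.0 CPM in macrophages (56.1 to 79.6). Macrophages were lower than neutrophils in 9 of 9 tags, at 66.8 CPM (58.2 to 79.6) against 142 CPM, a difference of -1.20 (SE 0.18, edgeR adjusted p 1.31e-06), and -0.89 in library 1 and -1.39 in library 3. They were lower than monocytes in 9 of 10, at 68.1 CPM (60.5 to 75.0) against 102 CPM, a difference of -0.65 (SE 0.08, edgeR adjusted p 4.05e-06) that was -0.68 in library 1, -0.13 in library 2 (adjusted p 0.902) and -0.33 without library 1 (adjusted p 0.501). DC other than cDC1 were higher than macrophages in 15 of 15 tags, at 101 CPM (73.5 to 122) against 66.5 CPM (58.2 to 75.0), a difference of 0.59 (SE 0.06, edgeR adjusted p 1.91e-08) that held at 0.62, 0.52 and 0.60 within libraries 1, 2 and 3 (adjusted p 5.48e-06, 0.0529 and 0.0284). Monocyte markers (5 genes, none at 0) moved with it, summing to 871 to 3502 CPM by tag in the other DC and 339 to 1160 CPM in macrophages; their part in the difference was not tested. Neutrophils exceeded monocytes in 5 of 6 tags, at 139.5 CPM (75.4 to 197) against 111 CPM (94.5 to 115), by 0.56 (SE 0.19, edgeR adjusted p 0.0218); the difference was 0.38 without library 3 (adjusted p 0.157) and 0.34 with no filter on low counts (adjusted p 0.433). The annotation places Myd88 inside Slc22a14 on the same strand and over Acaa1a on the other; Slc22a14 held 0.418 to 1.91 CPM and Acaa1a 19.7 to 38.6 CPM by class, and since counting by strand is not stated, Myd88 is uncertain to that extent.

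Within dendritic cells Tlr3 marked out cDC1. These cells, which cross-present material of dead cells, were compared with other DC in 9 tags with at least 10 cells of each, 7 of library 1 and 2 of library 3. In cDC1 5 markers summed to 1654 CPM and in other DC to 178 CPM; Xcr1 and Clec9a are among them and chose the cells. Of the 7 members tested, 1 was higher (Tlr3) and 3 were lower (Tlr1, Tlr2 and Cd14), with 29.8% of 6907 genes called, 13.6% higher and 16.3% lower. Tlr3 held a median of 77.8 CPM in cDC1 (16.4 to 138) and 6.09 CPM in other DC (0 to 9.21). It was higher in cDC1 in 9 of 9 tags and the ranges did not overlap, with a log2 difference of 3.75 (SE 0.25, edgeR adjusted p 2.00e-08). The 2 tags of library 3 gave 64.2 and 16.4 CPM in cDC1 (11 and 3 molecules in 14 and 10 cells), and 0 CPM in other DC of both tags. These are few counts, and other DC of the first tag held 278263 molecules of all genes, so the 0 is a loose limit. In library 1 the tags ran from 17.1 to 138 CPM in cDC1 and from 4.77 to 9.21 CPM in other DC.

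Tlr2, Cd14 and Tlr1 were lower in cDC1 than in other DC. Tlr2 stood at 44.4 CPM in cDC1 (11 to 70.3) and 219 CPM in other DC (159 to 353), with no overlap and a difference of -2.18 (SE 0.23, edgeR adjusted p 2.67e-06), and -1.98 in library 1 and -4.37 in library 3. Cd14 stood at 124 CPM in cDC1 (38.5 to 249) and 453.5 CPM in other DC (390.1 to 740), again with no overlap, and differed by -2.03 (SE 0.24, edgeR adjusted p 7.39e-06). Tlr1 was lower in cDC1 in 9 of 9 tags, at 8.11 CPM (0 to 22.4) against 33.8 CPM (19.1 to 41.9), by 1.36 on the log2 scale (SE 0.30, edgeR adjusted p 0.00240). Tlr7, Tlr13 and Myd88 were not called; Myd88 held 136 CPM in cDC1 (81.2 to 181) and 102 CPM in other DC (66.7 to 122), higher in 7 of 9 tags (difference 0.31, SE 0.13, edgeR adjusted p 0.0959). Tlr4 and Tlr9 did not pass the filter on low counts, with 49 molecules each in cDC1; Tlr4 stood at 5.84 CPM in cDC1 (0 to 20.1) and 17.3 CPM in other DC (10.8 to 38.8), lower in 7 of 9 tags.

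**Figure D3:**
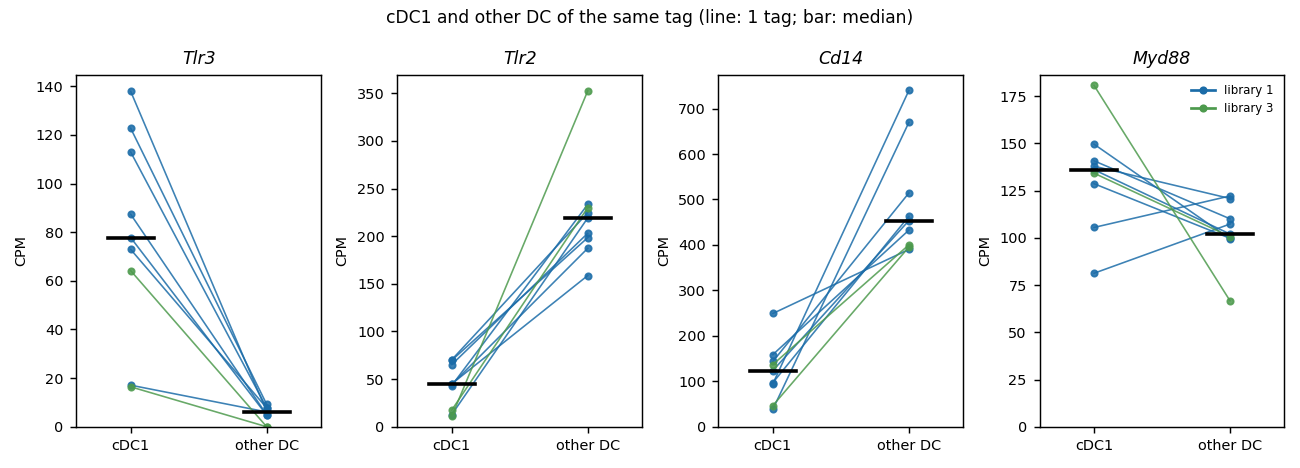
Levels in CPM (vertical axes) of Tlr3, Tlr2, Cd14 and Myd88 in cDC1 and other DC of the same tag; each line joins the classes of 1 tag. Tlr3 was higher in cDC1 in 9 of 9 tags, and Tlr2 and Cd14 were lower in 9 of 9.

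Which cells count as cDC1 moved these values. Among cDC1, 237 cells came from the DC class, where Tlr3 pooled to 94.1 CPM and Cd14 to 124 CPM. The 13 cells from the monocyte class held 0 Tlr3 molecules, and the 18 cells of no class held 14.3 CPM of Tlr3. A further 70 cells of the macrophage class met the cDC1 rule, with 36.9 CPM of Tlr3 and 797 CPM of Cd14. Where these were added to cDC1, the differences of Tlr1 and Cd14 from other DC shrank to -0.54 and -0.68 (edgeR adjusted p 0.194 and 0.113). Tlr3 did not pass the filter on low counts with cDC1 taken from the DC class alone or without library 1, and its difference was 3.46 to 3.79 over the 11 other alternatives.

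The split of macrophages by MHC class II, the molecules that present antigen to CD4 T cells, divided the members in direction. In 18 tags, 5 of 9 were higher at high MHC class II (Tlr1, Tlr2, Tlr9, Cd14 and Myd88), 3 were lower (Tlr4, Tlr7 and Tlr13) and Tlr3 was not called, with 57.4% of 10747 genes called, 29.3% higher and 28.1% lower. Tlr9 held a median of 11.9 CPM in macrophages of high MHC class II (3.99 to 19.4) and 3.88 CPM in those of low MHC class II (1.24 to 6.28). It was higher in 18 of 18 tags, with a log2 difference of 1.48 (SE 0.10, edgeR adjusted p 1.47e-11) and values of 1.42, 1.67 and 1.38 within libraries 1, 2 and 3. Over 13 alternatives its difference was 1.13 to 1.52, and 1.32 in macrophages that met no other rule. Tlr1 held 58.6 CPM (39.3 to 74.1) against 35 CPM (18.1 to 61.7), higher in 18 of 18 tags, a difference of 0.58 (SE 0.06, edgeR adjusted p 3.31e-08), and 0.36, 0.72 and 0.80 within libraries 1, 2 and 3.

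Tlr4 and Tlr13 were lower at high MHC class II in 18 of 18 tags. Tlr4 held 25.6 CPM (15.8 to 84.0) in macrophages of high and 44.7 CPM (31.3 to 136) in those of low MHC class II, a difference of -0.70 (SE 0.06, edgeR adjusted p 2.37e-09), and -0.70, -0.84 and -0.64 within libraries 1, 2 and 3. Tlr13 held 88.7 CPM (56.4 to 135) against 137 CPM (101 to 169), a difference of -0.48 (SE 0.05, edgeR adjusted p 4.57e-09), and -0.35, -0.62 and -0.59 within the libraries. The ranges overlapped for each gene, as tags also differed from each other. Smaller differences were measured for Tlr2 (0.31, SE 0.06, edgeR adjusted p 1.90e-04, 15 of 18 tags higher), Myd88 (0.28, SE 0.04, adjusted p 1.49e-06, 18 of 18) and Tlr7 (-0.14, SE 0.03, adjusted p 8.29e-04, lower in 17 of 18). In library 1, 2 and 3 Tlr2 differed by 0.45, 0.20 and 0.21, and in macrophages that met no other rule Tlr7 differed by -0.07 (edgeR adjusted p 0.0613). Cd14 differed by 0.14 (SE 0.06, edgeR adjusted p 0.0453, 14 of 18), a call that 6 of 13 alternatives lost. Tlr3 differed by -0.10 (SE 0.09, edgeR adjusted p 0.377), with -0.41 in library 1 (adjusted p 0.00383), 0.00 in library 2 and 0.25 in library 3 (adjusted p 0.133).

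**Figure D4:**
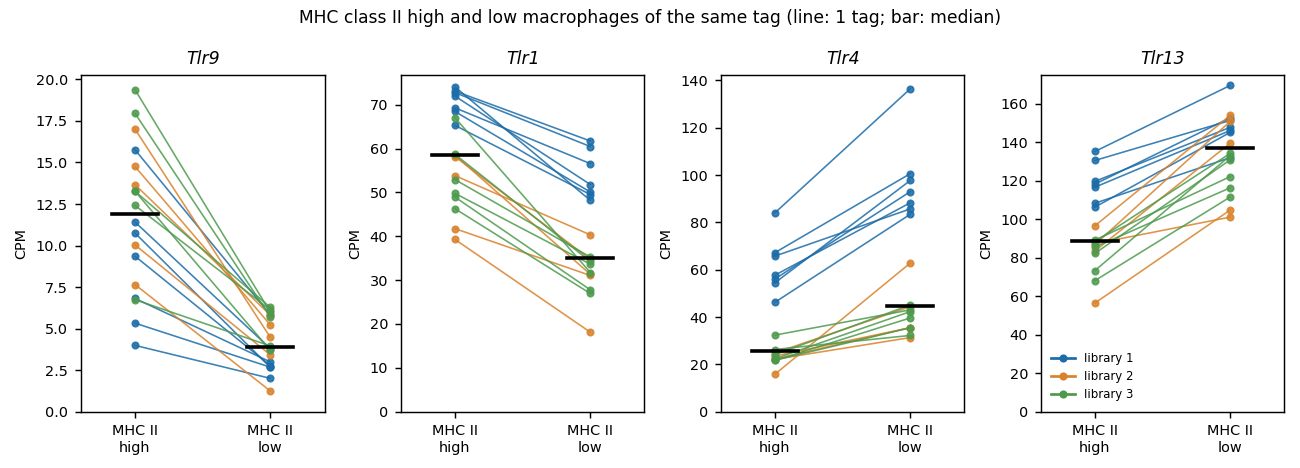
Levels in CPM (vertical axes) of Tlr9, Tlr1, Tlr4 and Tlr13 in macrophages of high and low MHC class II of the same tag; each line joins the classes of 1 tag. Tlr9 and Tlr1 were higher at high MHC class II in 18 of 18 tags, and Tlr4 and Tlr13 were lower in 18 of 18.

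Other features differed between the same macrophages. The median molecules per cell was 15934 at high and 26540 at low MHC class II. Monocyte markers (5 genes) summed over tags to between 780 and 2156 CPM at high and between 123 and 880 CPM at low MHC class II. DC markers (5 genes) summed to 25.0 to 160.2 CPM at high and 3.30 to 9.85 CPM at low MHC class II, and B cell markers (5 genes) to 42.2 to 231 CPM at high and 7.02 to 88.1 CPM at low. No gene of these lists was at 0 in either class, and their part in the differences was not tested.

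The T and B classes were compared with the limits stated above. Macrophages were higher than the T class for 7 of 9 members, with Tlr9 and Myd88 not called and 65.7% of 10889 genes called, 33.8% higher and 31.9% lower. Tlr4 had 41.8 CPM in macrophages (29.7 to 117) and 12.7 CPM in the T class (5.22 to 51.1), a difference of 1.48 (SE 0.10, edgeR adjusted p 7.83e-12, 18 of 18 tags higher). In single-rule cells, of which 4 tags held enough T cells, the differences were 4.37 for Tlr3, 4.35 for Tlr7, 3.52 for Tlr13, 3.16 for Tlr4, 2.89 for Tlr2, 2.54 for Cd14 and 1.83 for Tlr1, and Myd88 differed by 0.77 (edgeR adjusted p 0.0329). Median levels in those 4 T tags were 7.17 CPM for Tlr4, 5.09 CPM for Tlr7 and 342 CPM for Cd14, and Tlr9 was at 0 in 4 of 4. Tlr3 was at 0 in 3 of the 4 and at 2.75 CPM in the other, so the size of its difference is not to be read. With so few T cells, a level of 0 does not show absence. The B class was higher than the T class for 5 of 8 tested members (Tlr2, Tlr4, Tlr7, Tlr13 and Cd14), with 30.5% of 7988 genes called, 15.3% higher and 15.1% lower. Tlr1, Tlr3 and Myd88 were not called, and Tlr9 did not pass the filter on low counts. Tlr4 had 27.7 CPM in the B class (10.8 to 93.0) against 12.7 CPM in the T class (5.22 to 51.1), a difference of 0.82 (SE 0.14, edgeR adjusted p 6.23e-05) that was 0.84 (adjusted p 0.0543) with at least 50 cells; Tlr7 was then 0.17 (adjusted p 0.489), against 0.37 with all tags. In single-rule cells of the 2 tags that held both, only Tlr2 and Cd14 passed the filter and neither was called (differences 0.93 and 1.42, edgeR adjusted p 0.269 and 0.0983). Single-rule B cells (5 tags) held a median of 40.3 CPM of Tlr7 and 3.98 CPM of Tlr9.

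The share of cells with a molecule of a gene follows depth and free RNA as well as the level. Cd14 was found in 95.2% of macrophages and 65.6% of the T class, and in 30.4% of single-rule T cells, at medians of 20575, 14294 and 6864.5 molecules per cell. The T class should lack Cd14, so a share at or below its own is read as background. That class also held macrophage RNA, and the parts of this RNA and of depth in its share were not tested. Against single-rule T cells DC were higher before thinning: Cd14 was found in 55.5% of single-rule DC, at a median of 14143.5 molecules. After each cell was thinned to 1000 molecules, with 10 macrophages and 1 DC too shallow left out, Cd14 was found in 53.5% of macrophages, 69.5% of neutrophils, 62.0% of monocytes, 23.9% of DC and 29.0% of the T class. The DC share was thus not above that of the T class with its macrophage RNA. It was 27.2% in DC other than cDC1 and 10.4% in cDC1. Neutrophils, the shallowest class, thus led after thinning for Cd14. They also did for Tlr13, with 57.6% of neutrophils, 74.9% of macrophages and 62.1% of monocytes before thinning, and 21.9% of neutrophils, 11.4% of macrophages and 11.6% of monocytes after it; the T class had 34.3% before and 3.92% after thinning. Tlr3 was found in 44.8% of cDC1 (95% Clopper-Pearson interval 38.7 to 51.0) and in 6.17% of other DC (4.84 to 7.74), and after thinning in 9.70% of cDC1 and 0.441% of other DC. The T class had 11.3% before and 0.408% after thinning, and single-rule T cells 1.45% before it, so by the T class the share in other DC is at background. Tlr9 was found in 0 of 488 neutrophils, which allows a share of up to 0.615%, and in 11.4% of macrophages and 7.18% of the T class at their greater depth. After thinning it was found in 0.713% of macrophages, slightly above that limit, and in 0.245% of the T class, below it. At that depth the shares are too low to tell neutrophils from macrophages. The levels above, which use all molecules, gave a difference of at least 2.88-fold. Intervals and limits cover counting error only.

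**Figure D5:**
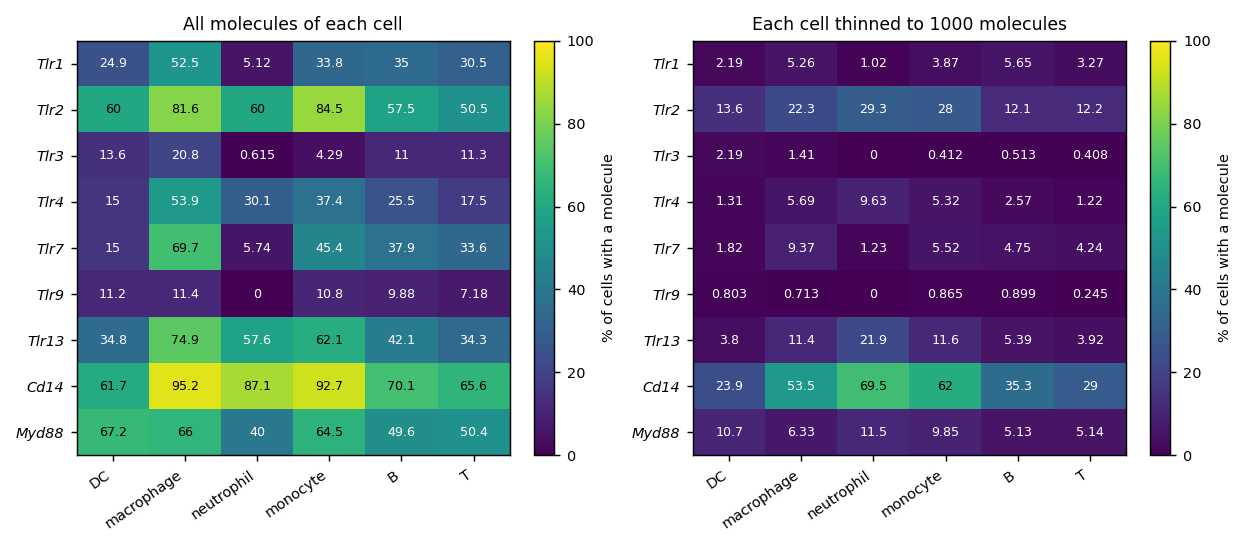
Percent of cells with at least 1 molecule of each member (rows) in each class (columns), for all molecules and after thinning to 1000 molecules per cell. Brighter colours stand for higher shares, darker colours for lower shares, and each number is the percent. After thinning Cd14 was found in 69.5% of neutrophils and 53.5% of macrophages.

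Where the molecules of a member lay followed the size of the macrophage class. Macrophages held 69.2% of all molecules counted, and between 65.5% (Myd88) and 81.0% (Tlr7) of the molecules of a member. Cells of no class held 13.3% of all molecules and 5.80% of Tlr9 to 13% of Cd14.

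Other genes of the pathway were counted by lists. Between macrophages and monocytes, 7 of 8 transcription factors were lower in macrophages and 0 higher, with a median log2 difference of -0.68 against 0.01 over all genes. Each list of this comparison is to be read against 32% of all genes higher and 31.4% lower. Irf7 differed by -1.07 (87.7 CPM in macrophages, 158 CPM in monocytes) and Rel by -0.74 (216 CPM in macrophages, 314 CPM in monocytes). Of 19 adaptors and kinases 11 were lower and 1 higher (median -0.38), among them Irak2, a kinase that Myd88 recruits, with 152 CPM in macrophages and 322 CPM in monocytes (-1.12), and Ikbkb, a kinase that releases NF-kappaB, with 75.2 CPM in macrophages and 168 CPM in monocytes (-1.16). Of 10 co-receptors and chaperones 5 were higher and 1 lower, led by the lipid receptor Cd36 (1.6; 566 CPM in macrophages, 197 CPM in monocytes) and by Cd180 (0.99; 308 CPM in macrophages, 139.6 CPM in monocytes). Of 14 target genes 7 were higher and 5 lower; Il1b, which encodes interleukin-1 beta, was lower (-1.66; 724 CPM in macrophages, 2150.1 CPM in monocytes), and the neutrophil attractant Cxcl1 was higher (1.13; 827 CPM in macrophages, 371 CPM in monocytes).

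In neutrophils against monocytes, targets and inhibitors of the pathway were mostly higher, where 27.5% of all genes were higher and 29.4% lower. Of 11 targets 9 were higher and 0 lower (median 1.85 against -0.08 over all genes), with the chemokine Ccl3 at 1988 CPM in neutrophils and 190.4 CPM in monocytes (3.42) and Tnf at 562 CPM in neutrophils and 117 CPM in monocytes (2.63). Of 8 inhibitors 7 were higher and 0 lower (median 1.30), with Nfkbia, which holds NF-kappaB in the cytoplasm, at 4278 CPM in neutrophils and 1725 CPM in monocytes (1.49) and Irak3, an inactive relative of the Irak kinases, at 197 CPM in neutrophils and 65.1 CPM in monocytes (1.89). Irak2 was higher in neutrophils by 1.77 (964 CPM in neutrophils, 322 CPM in monocytes), and Tlr6 by 2.17 (68.7 CPM in neutrophils, 17.7 CPM in monocytes). The interleukin receptor chains Il18rap (3.79) and Il1rap (3.66), which signal through Myd88, were both higher: Il18rap held 171 CPM in neutrophils and 12.7 CPM in monocytes, and Il1rap 413 CPM in neutrophils and 41.5 CPM in monocytes. Co-receptors and chaperones ran the other way, with 1 of 9 higher and 5 lower; Hsp90b1, the chaperone that folds most Toll-like receptors, was lower by 2.28 on the log2 scale (222 CPM in neutrophils, 1090.2 CPM in monocytes). Macrophages against neutrophils showed 5 of 8 transcription factors and 7 of 10 inhibitors lower and 0 higher in each list, and 8 of 10 co-receptors and chaperones higher, where 39.9% of all genes were higher and 19.8% lower. The medians were -0.87 for transcription factors, -1.49 for inhibitors and 1.17 for co-receptors and chaperones, against 0.58 over all genes. Tlr8, listed with 0 CPM in the median neutrophil tag, stood at 32.9 CPM in macrophages. The 9 neutrophil tags held only 1765201 molecules in all, so that 0 is a loose limit and does not show absence.

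In DC other than cDC1 against macrophages, 6 of 8 transcription factors were higher and 11 of 14 targets lower. The shares over all genes were 27.5% higher and 30.9% lower. The median of the transcription factors was 0.90, against -0.06 over all genes, and 1 was lower. Among those that were higher, Rel stood at 787 CPM in DC and 204 CPM in macrophages (2.03), Relb at 128 CPM in DC and 32.5 CPM in macrophages (1.96) and Nfkb1 at 402 CPM in DC and 132 CPM in macrophages (1.62). Of the 14 targets 2 were higher; Cxcl1 was lower (-2.87; 117 CPM in DC, 906 CPM in macrophages) and Ccl5 higher (3.62; 349 CPM in DC, 22.8 CPM in macrophages). Of 10 co-receptors and chaperones 8 were lower and 1 higher, among them Ly96, the partner of Tlr4 that holds lipopolysaccharide, at 12.1 CPM in DC and 37.7 CPM in macrophages (-1.66), and Cd36 (-3.05). Between cDC1 and other DC, 5 of 8 transcription factors were lower in cDC1 and 2 higher: Rel stood at 404 CPM in cDC1 and 996 CPM in other DC (-1.32) and Nfkb1 at 239 CPM in cDC1 and 585 CPM in other DC (-1.15). Of 9 inhibitors 5 were lower and 0 higher, and of 12 targets 7 were lower and 0 higher. The medians were -0.82 for transcription factors, -0.62 for inhibitors and -0.96 for targets, against 0.01 over all genes. Here 13.6% of all genes were higher and 16.3% lower. Tlr11, an endosomal receptor of profilin, was counted with 137 molecules in cDC1 and 2 in other DC of the same 9 tags, a ratio of 219 (95% counting interval 59.6 to 1830).

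In macrophages of high against low MHC class II, 7 of 8 transcription factors were higher and 0 lower (median 0.60 against 0.00 over all genes), with Rel at 321 CPM at high and 143 CPM at low MHC class II (1.16) and Nfkb1 at 185 CPM at high and 109.5 CPM at low (0.77). Over all genes, 29.3% were higher and 28.1% lower. Of 11 inhibitors 6 were higher and 1 lower, with Nfkbie, which holds NF-kappaB back, at 136 CPM at high and 61.5 CPM at low (1.16). Targets split evenly, 5 of 14 higher and 5 lower; Il6 held 12.6 CPM at high and 77.5 CPM at low MHC class II (-2.05) and Il1a 77.5 CPM at high and 301 CPM at low (-1.65), while Ccl5 held 54.95 CPM at high and 13.9 CPM at low (2.16). Cd36 was lower by 1.29 on the log2 scale (286 CPM at high, 648 CPM at low) and Saa3, an acute-phase protein known as a ligand of Tlr4, by 3.08 (61.6 CPM at high, 558 CPM at low). Their lists did not move with them as a whole. Of 10 co-receptors and chaperones 5 were higher and 3 lower. Of 9 endogenous ligands 1 was higher, 2 were lower and 6 were not called (median 0.09). All of the pathway genes named with a log2 difference here and in the paragraphs above on lists had an edgeR adjusted p under 0.05.

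The genes whose level was most like that of a member over 89 class and tag profiles were found by Pearson's r among 4616 genes, as a description; the profiles share tags, libraries and the order of depth between classes. Cd14 was most like Cebpb (r 0.92), Tlr13 like C5ar1 (0.91), Tlr7 like Lamp1 (0.90), Tlr4 like Atp2b1 (0.87) and Myd88 like Fgr (0.87). Values were lower for Tlr2 with Rab20 (0.79), Tlr3 with Gatm (0.75), Tlr1 with Ostm1 (0.75) and Tlr9 with Pld4 (0.69). Among the members themselves r was 0.79 for Tlr2 and Cd14, 0.76 for Tlr13 and Cd14 and 0.74 for Tlr4 and Tlr13. It was 0.60 for Tlr1 and Tlr7, -0.59 for Tlr7 and Myd88 and -0.56 for Tlr3 and Cd14.

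By GENCODE M21 on GRCm38, the members lie on chromosomes 5 (Tlr1, 64924679 to 64933563), 3 (Tlr2, 83836272 to 83841767), 8 (Tlr3, 45395665 to 45411080), 4 (Tlr4, 66827584 to 66930284), X (Tlr7, 167304929 to 167330558, and Tlr13, 106143204 to 106160493), 9 (Tlr9, 106222598 to 106226883, and Myd88, 119335934 to 119341411) and 18 (Cd14, 36725067 to 36726798), all as protein-coding genes.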

How the data were processed

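Counts are molecules per cell and gene as the authors deposited them; per the file headers they came from the BD Rhapsody pipeline on GRCm38 with GENCODE M19, after correction of molecular identifiers, with 1 file a sample tag. Newer beads and a newer release that kept intronic reads were used for library 1, per the file headers. Tags are biological replicates per the labels' protocols. Cells with under 200 genes (122) were left out. Sums of molecules over the cells of a class in a tag (20 cells or more, 10 for cDC1) were tested with edgeR 4.0.16 in R 4.3.3 (quasi-likelihood, TMM, filterByExpr, tag as block, Benjamini-Hochberg), after the step was tested on simulated data. The block pairs classes of the same tag, that is, the same replicate. Neighbours in the order of classes were compared by sign-flip permutation of log2(CPM + 10) within tags (100000 resamples, exact below 10 tags). Cells were thinned to 1000 molecules to compare shares across depths. Shares have 95% Clopper-Pearson intervals, and the limit for a count of 0 is 3 counts. Depth was 10152522 to 62344127 molecules a tag. Python 3.11.15 with scipy 1.17.1 and scanpy 1.11.5 did the rest. Doublets were not removed; 1 alternative left out the 512 cells (2%) with the highest Scrublet scores. Alternatives also changed the scaling, test (DESeq2 1.42.0), filter, block, libraries, minimum cells and class rules. All 9 members are named in every comparison, and from each pathway list genes were taken among the 3 called with the largest difference. The members and lists were chosen with earlier results of these data known. Genotypes and times were not compared, since the sources used here do not give them per tag.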

Additional observations from a re-analysis of the deposited data

Results flagged for a closer look

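In 36 groups of 6 to 10 tags, the tag that lay farthest from the others was checked for each member, and 7 stood apart; chance flags about 1 in 20 groups. Values are differences of log2(CPM + 10) within a tag. Between macrophages and monocytes, Tlr3 was lowest in a tag of library 2 at -0.28 (16.7 CPM in macrophages, 22.4 CPM in monocytes), while the others lay between 0.42 and 1.17. Tlr13 was highest in the tag of library 3 at 1.08 (106 CPM in macrophages, 44.9 CPM in monocytes), with the others between 0.05 and 0.35. Cd14 was highest in a tag of library 2 at 0.40 (1747 CPM in macrophages, 1324 CPM in monocytes), with the others between -0.63 and -0.29. Myd88 was highest in a tag of library 2 at 0.19 (71.7 CPM in macrophages, 61.7 CPM in monocytes), with the others between -0.70 and -0.34.

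Between macrophages and neutrophils, Tlr13 was highest in a tag of library 1 at -0.19 (139 CPM in macrophages, 159 CPM in neutrophils), with the others between -1.58 and -0.93. Between neutrophils and monocytes, Tlr4 was lowest in a tag of library 1 at 0.077 (58.6 CPM in neutrophils, 55.0 CPM in monocytes), with the others between 1.08 and 1.68. Tlr7 was lowest in a tag of library 1 at -3.08 (0 CPM in neutrophils, 74.7 CPM in monocytes), with the others between -2.07 and -1.48.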

How the results depend on the processing

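Library 1 held 2227 of 2427 monocytes. Leaving out 1 library at a time gave 985 to 7394 genes called for macrophages against monocytes (7111 with all libraries), 3845 to 6077 against neutrophils (6203) and 6007 to 6579 against the T class (7158). It gave 1602 to 1932 for B against T (2434), 3761 to 6213 for DC against macrophages (6338), 303 to 2121 for cDC1 against other DC (2059) and 4967 to 5722 for high against low MHC class II (6173). Neutrophils against monocytes gave 2801 to 3624 (2801) and could not be fitted without library 1. Neighbouring classes that differed numbered 5 to 19 (21), and 1 with at least 50 cells. Without library 1, with 3 tags left, all 7 member calls between macrophages and monocytes were lost: Tlr4 (0.38), Tlr7 (0.62) and Tlr9 (-0.95) were as large or larger, Tlr3 (0.66), Cd14 (-0.18) and Myd88 (-0.33) were smaller, and Tlr2 reversed to 0.046 (-0.71 and -0.68 without libraries 2 and 3); Tlr2 against neutrophils reversed to 0.019 (lowest -0.75). Tlr3 by MHC class II was -0.26 to 0.14 and Myd88 in B against T was -0.076 to 0.15 over the libraries left out; none of these reversed values was called.

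In cells that met 1 class rule alone, 3582 genes were called for macrophages against T and 187 for B against T, where a minimum of 50 cells gave 1219. Myd88 in B against T was -0.0014 with no filter. In cDC1, Tlr13 was 0.045 under 1 rule and 0.12 with cDC1 of the macrophage class added, where Tlr7 was 0.77; none was called. Of 54 pairs of member and class, 47 had a molecule in at least 10% of cells and 17 did after thinning. Without the replicate block that pairs classes of a tag, calls numbered 6022 for macrophages against monocytes, 6521 against neutrophils and 6559 against T. They numbered 2949 for neutrophils against monocytes, 1821 for B against T, 5978 for DC against macrophages, 1892 for cDC1 and 4148 by MHC class II. Member calls lost without it were Tlr4 between macrophages and monocytes (0.26, edgeR adjusted p 0.342), Tlr2 between macrophages and neutrophils (-0.43, 0.0751), Tlr7 in B against T (0.33, 0.196), and Tlr2, Tlr7 and Cd14 by MHC class II. Myd88 in cDC1 was gained (0.32, 0.0493). With no filter the share of called genes that were higher was 65.7% for macrophages against monocytes (50.5% with it), 35.7% for neutrophils against monocytes (48.4%), 38.6% for B against T (50.3%), 35.9% for DC against macrophages (47.1%) and 33.7% for cDC1 (45.5%; 34.0% without library 1). It was 61.1% for macrophages against T under 1 rule (51.5%). Tlr1 between macrophages and monocytes was called in 5 alternatives (0.24, DESeq2 adjusted p 0.0228) and Tlr13 in 4 (0.17, 0.0203). The causes were not tested. Depth limited neutrophils most: 9 tags held 1765201 molecules, 1 of Tlr3 and 0 of Tlr9.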

Other observations

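Cells that met no class rule numbered 4327. In them 4 fibroblast markers summed to 8067 CPM, against 216 CPM in macrophages. Over 18 tags they held a median of 963 CPM of Cd14 (382 to 1662), 72.8 CPM of Tlr13 (30.7 to 127) and 2.71 CPM of Tlr9 (0 to 4.52). No test was made of these cells.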
